A study of Mus musculus with 2 samples.

Results

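Limb muscle progenitors before commitment were taken from single-cell RNA profiles of mouse hindlimbs at E11.5 and described across genes. A barcode (the tag shared by all RNA molecules of 1 droplet, usually 1 cell) was a member when at least 1000 genes were detected, at most 10% of its unique molecular identifiers (UMIs, each standing for 1 captured RNA molecule) came from mitochondrial genes, Pax3, Pax7 and Lbx1 together gave at least 3 UMIs, Myod1 and Myog gave none, and Epcam, Cdh5 and Csf1r gave none. The members were 406 of 24473 barcodes that passed the gene and mitochondrial limits, 329 of them in the dual-enSERT-1 library and 77 in the dual-enSERT-2 library. The members were chosen by the UMI counts of those 8 genes, whose values are given as a description only.

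The study placed enhancer reporters at the H11 locus, a neutral insertion site, of FVB mice and dissociated embryonic hindlimbs with collagenase II. Both constructs pair the ZRS, the limb enhancer of Shh, driving mCherry with a point variant of the ZRS driving eGFP. The dual-enSERT-1 library carried the genotype H11_ZRS-mCherry/ZRS404G>A-GFP, and the dual-enSERT-2 library carried B-ZRS-mCherry at H11 together with SI/ZRS404G>A-eGFP-B. Each construct gave 1 library from 1 embryo, made with the 10x Genomics 3' v3.1 kit, and no library from an embryo without a reporter was used here. With 1 library per group there is no replicate and no test of a difference, so intervals cover counting error only. Construct, embryo, preparation and sequencing run cannot be told apart between the libraries.

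The muscle of the limb does not arise from limb mesenchyme. Its precursors delaminate from the lateral lip of the somite, migrate into the limb bud under the control of Pax3, Lbx1 and the receptor Met, and stay proliferative and undifferentiated on the way. Expression of Myf5 and Myod1 marks entry into the myogenic programme, and Myog opens terminal differentiation. In the name used here, before commitment means only that no Myod1 or Myog UMI was detected, which a missed low level would also give. Myf5 was not part of the rule, and 217 of 329 and 23 of 77 members had a Myf5 UMI. By Myf5 these members have entered the programme.

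Lbx1 lies on chromosome 19 at 45221109 to 45225311 on the minus strand of GRCm39, and Myog lies on chromosome 1 at 134217707 to 134220287 on the plus strand. The 250 bases upstream of each transcription start are shown because Lbx1 stands for the migratory state that defined the members and Myog for the state that excluded a barcode. The first window is chr19:45224252-45224501 and the second is chr1:134217457-134217706, both printed 5' to 3' along the gene's own strand. Each ends at the start of the gene's canonical transcript, which for Lbx1 lies inside the span given above, because that span also covers transcripts with another start. Capitals mark TAATTA, a homeodomain core, in Lbx1, and an E-box (CANNTG, here CACATG) and a MEF3 motif (TCAGGTT) in Myog.
Lbx1: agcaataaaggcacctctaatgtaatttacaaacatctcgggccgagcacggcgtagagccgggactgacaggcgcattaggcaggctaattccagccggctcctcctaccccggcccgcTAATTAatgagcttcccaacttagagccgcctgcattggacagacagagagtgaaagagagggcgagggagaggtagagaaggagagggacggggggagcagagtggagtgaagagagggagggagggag
Myog: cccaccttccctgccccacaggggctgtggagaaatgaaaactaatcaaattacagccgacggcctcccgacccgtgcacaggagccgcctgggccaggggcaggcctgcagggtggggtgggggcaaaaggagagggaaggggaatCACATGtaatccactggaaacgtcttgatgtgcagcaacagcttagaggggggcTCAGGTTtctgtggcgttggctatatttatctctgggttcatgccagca
Genes called higher in the progenitors, by a rule given with the comparison, held an E-box on either strand in 54 of 99 such windows (54.5%), against 3761 of 6693 windows (56.2%) of all genes compared. They held TAATTA in 6 of 99 (6.06%), against 200 of 6693 (2.99%), and TCAGGTT in 3 of 99 (3.03%), against 200 of 6693 (2.99%). The 99 include Pax3 and Lbx1, whose counts chose the members, and Lbx1 is among the 6 with TAATTA. A match describes letters in these windows and is not a site of binding.

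The libraries differed in depth and make-up. They held 20508 and 8885 barcodes, with 17790 and 6683 passing in dual-enSERT-1 and dual-enSERT-2, and a median of 14745.5 and 26149 UMIs in each passing barcode. Barcodes with at least 30% globin UMIs made up 287 of the passing barcodes (1.61%) in dual-enSERT-1 and 1722 (25.8%) in the dual-enSERT-2 library. They are called erythroid here and serve as cells that should lack muscle genes, although 2 of those in dual-enSERT-2 also met the rule for members. The libraries shared 29 passing barcode sequences, and each was kept in its own library.

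Progenitors made up 1.85% of passing barcodes in dual-enSERT-1 (exact binomial 95% interval 1.66 to 2.06%) and 1.15% in the dual-enSERT-2 library (0.910 to 1.44%). They had a median of 23670 and 30062 UMIs, against 14638 and 26099 in the other barcodes of the same libraries. The sum of Pax3, Pax7 and Lbx1 had a median of 12 UMIs in dual-enSERT-1 (3 to 51), against 20 in the dual-enSERT-2 library (3 to 99). At the threshold, 20 and 1 members had exactly 3 of these UMIs, and 24 and 3 barcodes had 2 and stayed outside.

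Pax3, the paired-box factor at the head of limb myogenesis, was detected in nearly every member. A Pax3 UMI was present in 326 of 329 members of dual-enSERT-1 and in 77 of 77 of the dual-enSERT-2 library. Pax3 with Lbx1 and without Pax7 was the commonest combination, in 240 members (72.9%) of dual-enSERT-1 and 73 (94.8%) of the dual-enSERT-2 library. Pax3 alone was seen in 50 and 2 members, all 3 genes in 32 and 2, and neither Pax7 alone nor Lbx1 alone in any.

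Pax7, the paired-box factor of later fetal progenitors and satellite cells, was sparse. It had a UMI in 39 members (11.9%) of dual-enSERT-1 and in 2 (2.60%) of the dual-enSERT-2 library. After each barcode was thinned to 5000 UMIs, it was found in 9 of 323 members deep enough (2.79%) in dual-enSERT-1 and in 0 of 77 in the dual-enSERT-2 library, which allows up to 3.90% of members with a Pax7 UMI at that depth and does not limit the share that express the gene. The pooled level, in UMIs of a gene per 1000000 UMIs summed over the members (CPM), was 8.46 and 0.76 for Pax7 and 444 and 609 for Pax3.

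The 2 other fixed markers, which the rule did not use, were present in both libraries. Met, the receptor for hepatocyte growth factor that lets the precursors leave the somite, had a UMI in 300 members (91.2%) of dual-enSERT-1 and 75 (97.4%) of the dual-enSERT-2 library. At 5000 UMIs it was found in 61.9% of members, against 0.35% of erythroid barcodes, in dual-enSERT-1 and in 68.8%, against 0.12%, in the dual-enSERT-2 library. Myf5, the earliest myogenic bHLH factor, had a UMI in 217 members (66.0%) of dual-enSERT-1 and 23 (29.9%) of the dual-enSERT-2 library. At equal depth the Myf5 shares were 28.8% and 7.79%, and 0 of 287 and 0 of 1719 erythroid barcodes had one. Both Met and Myf5 were at 0 in 13 and 2 members.

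Some members also carried RNA of limb mesenchyme. Prrx1, a homeobox gene of limb mesenchyme, had at least 3 UMIs in 117 members of dual-enSERT-1, against 25 of the dual-enSERT-2 library. Scrublet, which scores barcodes for likeness to simulated pairs of cells, called 78 of those 117 and 5 of those 25 doublets. Among members with fewer than 3 Prrx1 UMIs it called 4 of 212 and 2 of 52. Over all passing barcodes it called 9.61% in dual-enSERT-1 and 3.43% in the dual-enSERT-2 library. The summed level of the 11 mesenchyme markers was 629 and 259 CPM in all members and 190 and 96.3 CPM in members low in Prrx1, against 2255 and 1772 CPM in Prrx1 mesenchyme. Prrx1 mesenchyme means barcodes with at least 3 Prrx1 UMIs and none of the 8 rule genes. Values from the low-Prrx1 members therefore stand beside the results that move with these markers.

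**Figure D1:**
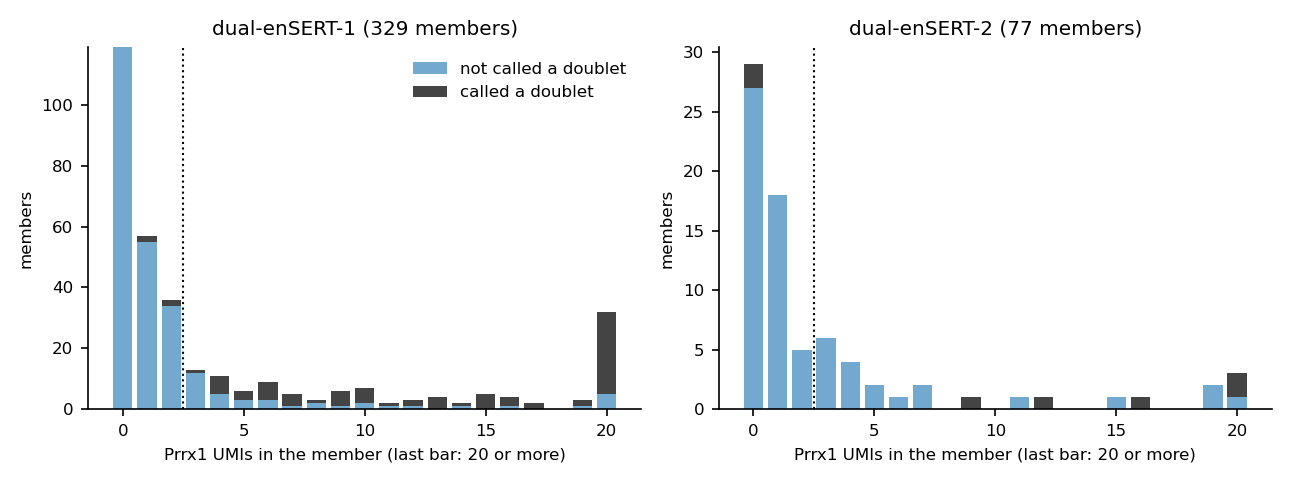
Number of members (vertical axis) by their Prrx1 UMIs (horizontal axis, last bar 20 or more) in each library; dark bars are members called doublets and the dotted line is the limit of 3 UMIs. In dual-enSERT-1, 78 of the 82 called doublets lie right of the line, and in dual-enSERT-2, 5 of 7 do.

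Markers of other cell types were checked as well. Sox10, the defining factor of neural crest and glia, had no UMI in any member, which allows up to 0.358 CPM in dual-enSERT-1 and 1.14 CPM in the dual-enSERT-2 library. Erbb3, another of the 8 listed glia and neural crest markers, had 4.29 and 0.38 CPM in members. The median log2 ratio of these 8 markers, members over other barcodes, was -0.03 and -0.08. For 6 melanoblast markers it was -0.30 and -0.01. Whether some members are neural crest cells was not tested. The summed endothelial markers reached 8.2 and 8.0 CPM, against 89.5 and 54.4 CPM in the other barcodes. Cdh5 is among these markers and the rule left out barcodes with a Cdh5 UMI. The low sum was thus set in part by the rule and is a description only. The globin share had a median of 0.0254% and 0.250% of a member's UMIs, against 0.0284% and 0.247% in mesenchyme, and it was above 1% in 1 and 7 members. The highest shares were 1.60% and 37.5%, and 2 members of dual-enSERT-2, both called doublets, had at least 30% globin.

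The main comparison asked which genes set the progenitors apart from all other passing barcodes of their own library. Genes known from somites and premyogenic cells were higher in both libraries: Met, Myf5, Eya1, Eya2 and Eya4, Sim2, Tcf15 and Meox2. Genes of limb mesenchyme and of hindlimb identity were lower. A gene was called when, in each library, its level reached 20 CPM in progenitors or in other barcodes and its log2 ratio, after adding 1 CPM to both levels, was at least 1 in size with 1 sign throughout. Of 6697 genes that reached the level, 99 were called higher (1.48%), with Pax3 and Lbx1 of the member rule among them, and 121 lower (1.81%). The median log2 ratio of all these genes was -0.02 in dual-enSERT-1 and 0.26 in the dual-enSERT-2 library, and it was -0.02 in dual-enSERT-2 once erythroid barcodes were left out.

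**Figure D2:**
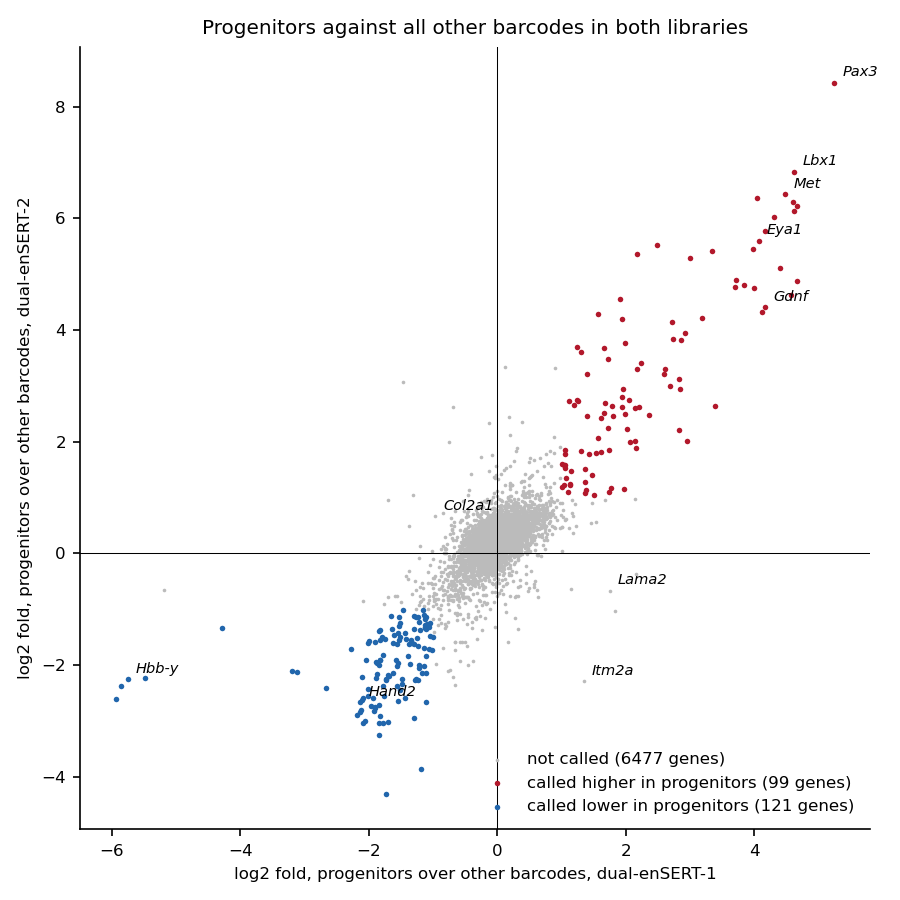
Log2 ratio of progenitors over other barcodes in dual-enSERT-1 (horizontal) and dual-enSERT-2 (vertical), 1 point per gene that reached 20 CPM; red points are the 99 genes called higher, blue points the 121 called lower and grey points the rest. Met, Eya1 and Gdnf lie high in both libraries, Hand2 and Hbb-y low in both, and Itm2a and Lama2 are positive in dual-enSERT-1 but negative in dual-enSERT-2.

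Met reached 232 CPM in the progenitors of dual-enSERT-1 (interval 221 to 242) and 232 CPM in those of the dual-enSERT-2 library (214 to 252), against 9.39 and 1.71 CPM in the other barcodes. The log2 ratios were 4.48 and 6.43. The progenitor levels were equal, so the ratios differ through the other barcodes. Those of dual-enSERT-1 contained 222 Pax-positive barcodes with Myod1 or Myog and 72 with a gene of another lineage, against 2 and 4 in dual-enSERT-2. In Prrx1 mesenchyme Met stood at 1.39 and 0.66 CPM.

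Myf5 had 67.0 and 23.9 CPM in the progenitors, against 1.87 and 0.01 CPM in the other barcodes, with log2 ratios of 4.57 and 4.62. The dual-enSERT-2 comparison rests on 2 Myf5 UMIs in 6606 other barcodes. Both levels in the progenitors were above both levels elsewhere.

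Eya1, a phosphatase and transcriptional coactivator, had 220 and 298 CPM in the progenitors, against 12.1 and 5.17 CPM in the other barcodes (log2 ratios 4.07 and 5.60). Eya2 had 139 and 148 CPM in the progenitors, against 7.91 and 2.43 CPM (3.98 and 5.44). Eya4 and Dach2 were also called higher, at 151 and 169 CPM and at 87.5 and 155 CPM in the progenitors.

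Of 22 listed premyogenic regulators, 14 reached the level, 9 were called higher and 1 lower; the median log2 ratio over the 22 was 1.60 and 2.69, beside -0.02 and 0.26 for all genes compared. Sim2, a bHLH-PAS repressor, had 67.4 and 77.3 CPM in the progenitors, against 1.77 and 0.12 CPM in the other barcodes (4.63 and 6.13). Tcf15, the somite bHLH factor also called paraxis, had 103 and 114 CPM, against 16.1 and 10.6 CPM (2.61 and 3.31). Meox2, a somite homeobox gene needed for normal limb muscle, had 174 and 108 CPM, against 75.1 and 16.3 CPM (1.20 and 2.65).

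Msx1, which is known to hold myoblasts undifferentiated and is also a distal mesenchyme gene, was the 1 regulator called lower. It had 50.7 and 27.3 CPM in all members and 12.2 and 15.7 CPM in members low in Prrx1, against 171 and 133 CPM in the other barcodes. Tcf21, a regulator of head muscle progenitors, had no UMI in the members of either library, and Tbx1, another head muscle factor, had 1.79 and 0 CPM.

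**Figure D3:**
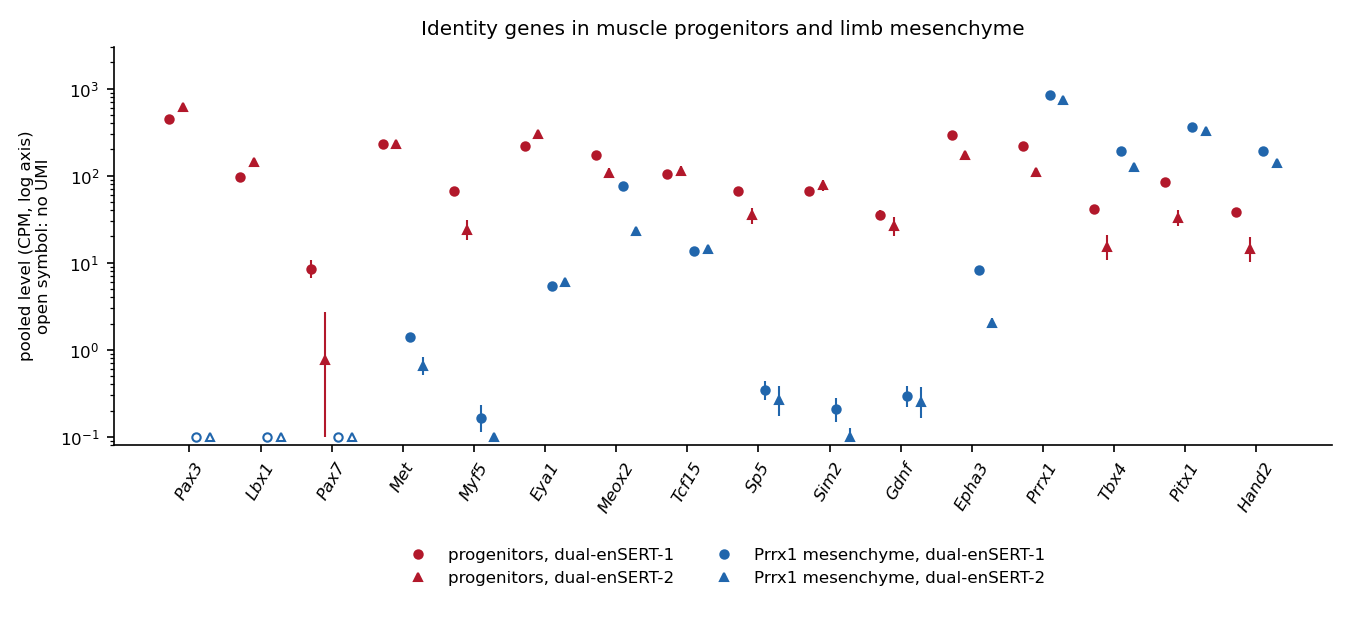
Pooled level in CPM (log axis) of 16 genes in progenitors (red) and Prrx1 mesenchyme (blue) of dual-enSERT-1 (circles) and dual-enSERT-2 (triangles); bars are exact Poisson 95% intervals and open symbols mean no UMI. Met stands at 232 and 232 CPM in progenitors and at 1.39 and 0.66 CPM in mesenchyme, and Prrx1, Tbx4, Pitx1 and Hand2 lie lower in progenitors.

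Several of the genes with the largest ratios are not classical myogenic regulators. Sp5, a zinc-finger gene of the Wnt response, had 67.4 and 34.9 CPM in the progenitors, against 1.69 and 0.23 CPM in the other barcodes (4.67 and 4.87). Tmem132d, a transmembrane protein gene, had 96.8 and 144 CPM, against 2.85 and 0.95 CPM (4.67 and 6.21). Mybpc1, a myosin-binding protein of slow muscle, had 251 and 111 CPM, against 9.34 and 0.43 CPM (4.61 and 6.29).

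None of 33 listed genes of the contractile apparatus, the neuromuscular junction and fusion reached 20 CPM in both libraries, so none could be called. Their summed level in the progenitors was 229 and 53.8 CPM, against 64.9 and 26.8 CPM in the other barcodes. Tnnt1, slow skeletal troponin T, gave 92.6 and 2.65 CPM of it, against 1.78 and 2.28 CPM in Prrx1 mesenchyme. Des, desmin, had 7.03 and 11.4 CPM, against 0.88 and 2.01 CPM in mesenchyme. Rbm20, a splicing regulator whose targets include titin, had 199 and 42.1 CPM in the progenitors, against 10.5 and 1.16 CPM in the other barcodes (4.12 and 4.32).

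Epha3, an Eph receptor of axon and cell guidance, had 290 and 172 CPM, against 13.7 and 1.66 CPM (4.31 and 6.02). Gdnf, a ligand of the receptor Ret and best known from kidney and nerve development, had 35.5 and 26.2 CPM, against 1.02 and 0.28 CPM (4.18 and 4.41). The RNA Gm33152 had 27.8 and 57.6 CPM, against 0.60 and 0.07 CPM (4.17 and 5.78). In Prrx1 mesenchyme, Epha3 stood at 8.15 and 2.04 CPM, Gdnf at 0.29 and 0.25 CPM, and Sp5 at 0.35 and 0.26 CPM.

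Among 20 listed receptors and adhesion molecules of migration, 12 reached the level, and Met alone was called higher while Epha4, Unc5b, Cdh11 and Nrp1 were called lower. Epha4 had 125 and 34.9 CPM in all members and 61.4 and 15.7 CPM in members low in Prrx1, against 285 and 158 CPM in the other barcodes (-1.18 and -2.15). Nrp1, a semaphorin and VEGF coreceptor, had 23.8 and 20.1 CPM, against 89.7 and 81.0 CPM (-1.87 and -1.96). Cxcr4, the chemokine receptor of migrating precursors, did not reach 20 CPM: it had 17.4 and 9.10 CPM in the progenitors, against 1.19 and 0.35 CPM in the other barcodes.

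The guidance ligand Slit2 was higher in the progenitors, with 301 and 574 CPM, against 75.1 and 41.4 CPM in the other barcodes (1.99 and 3.76). Its relative Slit3 was lower, with 181 and 154 CPM, against 567 and 394 CPM (-1.64 and -1.35). Cxcl12, the ligand of Cxcr4, had 13.6 and 7.96 CPM, against 47.9 and 24.8 CPM (-1.75 and -1.53). Hgf, the ligand of Met, had 5.25 and 3.41 CPM in all members and 3.46 and 0.66 CPM in members low in Prrx1, against 13.3 and 8.66 CPM in Prrx1 mesenchyme, and did not reach the level.

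The signalling lists are read beside the 1.48% of all compared genes called higher and 1.81% called lower. In the FGF list 8 of 14 genes reached the level and 3 were called lower: Spry1 (6.32 and 3.41 CPM, against 23.8 and 24.9 CPM) and Dusp6 (36.7 and 34.1 CPM, against 87.6 and 110 CPM), both feedback inhibitors of the pathway, and the ligand Fgf10 (17.0 and 18.2 CPM, against 53.0 and 70.8 CPM). In the Wnt and BMP list 13 of 16 genes reached the level; the BMP receptor Bmpr1b was called higher, with 424 and 159 CPM, against 131 and 23.7 CPM (1.68 and 2.69), and Bmp4 and Bambi were called lower. In the hedgehog list Hhip, a secreted hedgehog inhibitor and pathway target, was the 1 gene called higher of 8 that reached the level, with 35.4 and 39.8 CPM, against 7.26 and 5.72 CPM (2.14 and 2.60). The receptor and target Ptch1 had 108 and 94.4 CPM, against 136 and 104 CPM, and was not called. None of 16 Notch genes was called; 6 of them reached the level. None of the 9 IGF genes and 3 dissociation-stress genes that reached the level was called, and at these shares counts that small say little about the lists. Among 20 matrix and adhesion genes, 12 reached the level and Vcam1, an adhesion molecule and ligand of Itga4, was called lower, with 14.4 and 9.48 CPM in all members and 4.38 and 7.86 CPM in members low in Prrx1, against 54.2 and 40.9 CPM in the other barcodes.

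Proliferation genes were at similar levels in progenitors and other barcodes. None of 24 S-phase and none of 24 G2/M genes was called. The S-phase list summed to 2856 and 2959 CPM, against 2843 and 2752 CPM, and the G2/M list to 3694 and 4153 CPM, against 4327 and 3987 CPM. Cdkn1a, the cell-cycle inhibitor p21, was called higher, with 163 and 39.4 CPM in the progenitors, against 14.7 and 5.52 CPM (3.39 and 2.63). In Prrx1 mesenchyme Cdkn1a stood at 1.94 and 1.27 CPM.

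Genes of limb mesenchyme, beside globins, led the genes called lower. Hand2, the posterior limb factor, had 38.0 and 14.4 CPM in all members and 6.92 and 2.62 CPM in members low in Prrx1, against 171 and 96.2 CPM in the other barcodes (-2.14 and -2.66). Cyp26b1, which breaks down retinoic acid, had 29.8 and 12.5 CPM in all members and 4.38 and 2.62 CPM in those low in Prrx1, against 139 and 99.1 CPM (-2.19 and -2.89). Rspo3, a Wnt agonist, had 16.1 and 4.17 CPM, against 74.3 and 36.1 CPM (-2.14 and -2.84). For Hand2 and Cyp26b1, the level in low-Prrx1 members was below the level in all members in both libraries.

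Crabp1, a retinoic acid binding protein, had 46.1 and 53.1 CPM in the progenitors, against 205 and 379 CPM (-2.13 and -2.81), and the zinc-finger gene Zic2 had 9.89 and 6.82 CPM, against 45.9 and 35.4 CPM (-2.11 and -2.22). Of 11 mesenchyme markers, 8 reached the level and 7 were called lower. Prrx1 itself had 217 and 109 CPM in all members, against 699 and 503 CPM.

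The remaining genes with the largest negative ratios were the globins Hbb-bh1, Hbb-y, Hba-x, Hba-a1 and Hba-a2, with Car2, carbonic anhydrase of red cells, and Mt1, a metallothionein. Hbb-y had 156 and 18594 CPM in the progenitors, against 8487 and 88605 CPM in the other barcodes. Without the erythroid barcodes, the log2 ratios in dual-enSERT-2 were between 0.33 (Hba-a2) and 1.16 (Mt1) for these 5 globins, Car2 and Mt1, with 0.86 for Hbb-y, so the sign changed and none of the 7 would be called lower. The dual-enSERT-2 members with over 1% globin numbered 7 of 77.

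The hindlimb identity genes that reached the level were lower as well, and lower again in members low in Prrx1. Tbx4, the T-box factor of hindlimb mesenchyme, had 41.2 and 15.2 CPM in all members and 6.23 and 3.28 CPM in members low in Prrx1, against 171 and 86.0 CPM in the other barcodes. Pitx1, the homeobox factor that specifies hindlimb, had 83.8 and 32.6 CPM in all members and 13.1 and 3.28 CPM in members low in Prrx1, against 315 and 226 CPM. Both were called lower.

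No Hox gene on the list of position genes was called. Hoxa9 had 131 and 168 CPM in the progenitors, against 153 and 117 CPM in the other barcodes. Hoxc10, expressed at hindlimb level, had 132 and 136 CPM, against 106 and 98.7 CPM. Hoxa11 had 57.1 and 89.1 CPM, against 66.0 and 63.4 CPM. Hand2 was the 1 gene of that list of 18 called lower. The distal genes were low: Hoxa13 had 21.2 and 3.41 CPM, against 75.3 and 17.6 CPM, and Hoxd13 had 15.7 and 1.90 CPM, against 73.4 and 17.2 CPM, neither reaching the level in both libraries.

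With Prrx1 mesenchyme in place of all other barcodes, 98 genes were called higher (1.42% of 6891) and 157 lower (2.28%). With members low in Prrx1 against the other barcodes, 114 were called higher (1.7% of 6692) and 166 lower (2.48%).

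The next question was what changes at the step to commitment. Only dual-enSERT-1 could be used: 131 barcodes there had at least 3 UMIs of Myod1 and Myog together, and none did in dual-enSERT-2, where all 6683 passing barcodes held 6 UMIs of the pair, against 2578 in dual-enSERT-1. Progenitors had less RNA of contractile and fusion genes than committed barcodes, shared Met and Eya1 with them at similar levels, and had more of a set led by Gria2, Gdnf and Cntnap2. Of 7129 genes with at least 20 CPM in either group, 52 were called higher in progenitors (0.729%) and 143 lower (2.01%), here by the ratio in this library alone. With committed barcodes taken at 1 UMI of Myod1 or Myog beside the Pax genes, the counts were 10 higher and 38 lower.

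Of the 33 structural genes, 18 reached the level and all 18 were called lower in progenitors. Actc1, cardiac actin and the early actin of skeletal muscle, had 3.22 CPM in progenitors, against 410 CPM in committed barcodes (log2 ratio -6.61). Mymx, which encodes the fusion peptide myomixer, had 2 UMIs or 0.24 CPM in progenitors, against 85.7 CPM (-6.13). Ttn, titin, had 5.25 CPM, against 197 CPM (-4.99).

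Tnnt2, cardiac troponin T, had 0.60 CPM in progenitors, against 45.8 CPM in committed barcodes (-4.87), and Mylpf, the fast muscle regulatory light chain, had 8.94 CPM, against 269 CPM (-4.76). Chrm3, a muscarinic acetylcholine receptor, had 2 UMIs or 0.24 CPM, against 78.1 CPM (-6.00). The globins Hbb-bh1 and Hba-x were also among the 8 lowest, with 5.13 and 53.2 CPM in progenitors, against 216 and 1616 CPM, and 2 of 131 committed barcodes exceeded 1% globin, the highest at 25.4%.

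Of 16 listed myogenic bHLH and cell-cycle exit genes, 13 reached the level and 4 were called lower, namely Cdkn1c, Cdkn1a, Rb1 and Mef2a. The median log2 ratio of that list was -0.19, beside 0.06 for all genes compared. Cdkn1c, the inhibitor p57, had 1421 CPM in progenitors, against 4407 CPM in committed barcodes (-1.63). Cdkn1a had 163 CPM, against 419 CPM (-1.35), and Rb1, the retinoblastoma protein gene, had 16.7 CPM, against 84.0 CPM (-2.27). Mef2c, a partner of the myogenic bHLH factors, had 11.3 CPM, against 98.3 CPM (-3.01). Dll1, a Notch ligand, had 2.38 CPM, against 23.2 CPM (-2.84), and was the 1 Notch gene called. None of the 24 S-phase or 24 G2/M genes was called.

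On the progenitor side, Gria2, an AMPA glutamate receptor subunit, had 55.1 CPM, against 8.89 CPM in committed barcodes, which is 6.20-fold (exact interval 4.35 to 9.11). Gdnf had 35.5 CPM, against 5.93 CPM (5.99-fold, 3.89 to 9.71). Cntnap2, a neurexin-family adhesion gene, had 21.8 CPM, against 4.04 CPM (5.40-fold, 3.19 to 9.84). Angpt1, the ligand of the receptor Tie2, had 29.3 CPM, against 6.20 CPM, and Dkk2, a Wnt modulator, had 51.1 CPM, against 12.1 CPM. Zfpm2, a cofactor of GATA factors, and the cadherin Cdh8 had 24.1 and 33.1 CPM in progenitors, against 5.93 and 8.62 CPM in committed barcodes. In Pax-positive barcodes with fewer than 3 Prrx1 UMIs, Gdnf had 37.8 CPM without Myod1 and Myog UMIs and 7.95 CPM with 3 or more. Such values are not given here for the other genes of this set, and the part of mesenchyme RNA in them was not tested.

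Among the premyogenic regulators Dach1, Dach2 and Meox2 were called higher in progenitors and Mef2c, Zeb2 and Pitx3 lower. In the mesenchyme, chondrogenic, hindlimb identity and position lists, Osr1, Sox5, Isl1 and Hoxd11 were also called higher, and no gene lower. Doublets were called in 24.9% of progenitors and 15.3% of committed barcodes. Meox2 had 174 CPM, against 82.2 CPM (1.07). In Pax-positive barcodes with fewer than 3 Prrx1 UMIs, Meox2 had 179 CPM without Myod1 and Myog UMIs and 93.4 CPM with 3 or more. Eya1 had 220 CPM in progenitors, against 167 CPM in committed barcodes (0.39). Met had 232 CPM, against 207 CPM (0.16). Neither was called. Myf5 had 67.0 CPM in progenitors, against 43.4 CPM in committed barcodes (0.62), and was also not called.

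Pax-positive barcodes of dual-enSERT-1 were then ordered by their Myod1 and Myog UMIs: 329 with 0, 119 with 1 or 2, and 103 with 3 or more, with a median of 23670, 25092 and 27900 UMIs. The steps were set by the counts of these genes, and deeper barcodes have more chance of a UMI, so the order is a description. After thinning to 5000 UMIs, Myod1 or Myog was found in 92 of 545 Pax-positive barcodes (16.9%) of dual-enSERT-1 and 1 of 79 (1.27%) of the dual-enSERT-2 library.

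Along these steps Pax3 had 444, 344 and 265 CPM, and Gdnf had 35.5, 23.6 and 6.89 CPM. Sp5 had 67.4, 46.7 and 27.3 CPM, and Epha3 had 290, 231 and 142 CPM. All 4 were lowest in the barcodes with the most Myod1 and Myog. Met, at 232, 237 and 232 CPM, stayed at nearly one level.

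Msc, plotted with the differentiation genes, had 54.0, 51.9 and 47.9 CPM. In barcodes with fewer than 3 Prrx1 UMIs it had 85.1, 73.1 and 52.7 CPM. Over all Pax-positive barcodes, the other 6 plotted differentiation genes were highest at the last step. Cdh15, the cadherin of muscle precursors, had 26.9, 41.1 and 72.0 CPM, and Cdkn1c had 1421, 1956 and 3626 CPM. Ttn had 5.25, 13.1 and 76.7 CPM, and Mymk, which encodes the fusion protein myomaker, had 0.83 CPM at the first step and 3.79 CPM at the middle step. For these 4 genes the counting intervals of the first and middle steps did not overlap. In the 212 and 79 barcodes of these steps with fewer than 3 Prrx1 UMIs, only the intervals of Cdkn1c stayed apart. There Cdh15 had 35.5 and 48.6 CPM, Ttn 7.61 and 12.8 CPM, and Mymk 0.92 and 3.91 CPM. Fewer UMIs widen the intervals, and Mymk rests there on 4 and 7 UMIs. The share of all genes whose intervals stay apart between these steps is not given here, with or without the Prrx1 limit. Over all Pax-positive barcodes, Tnnt1 had 92.6, 109 and 220 CPM, Actc1 had 3.22, 4.38 and 108 CPM, and Mymx had 0.24, 0.29 and 15.7 CPM. Their intervals overlapped between the first and middle steps, where Actc1 rests on 27 and 15 UMIs and Mymx on 2 and 1. Hbb-y, which has no role in muscle, had 156, 4492 and 4826 CPM along the same steps.

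**Figure D4:**
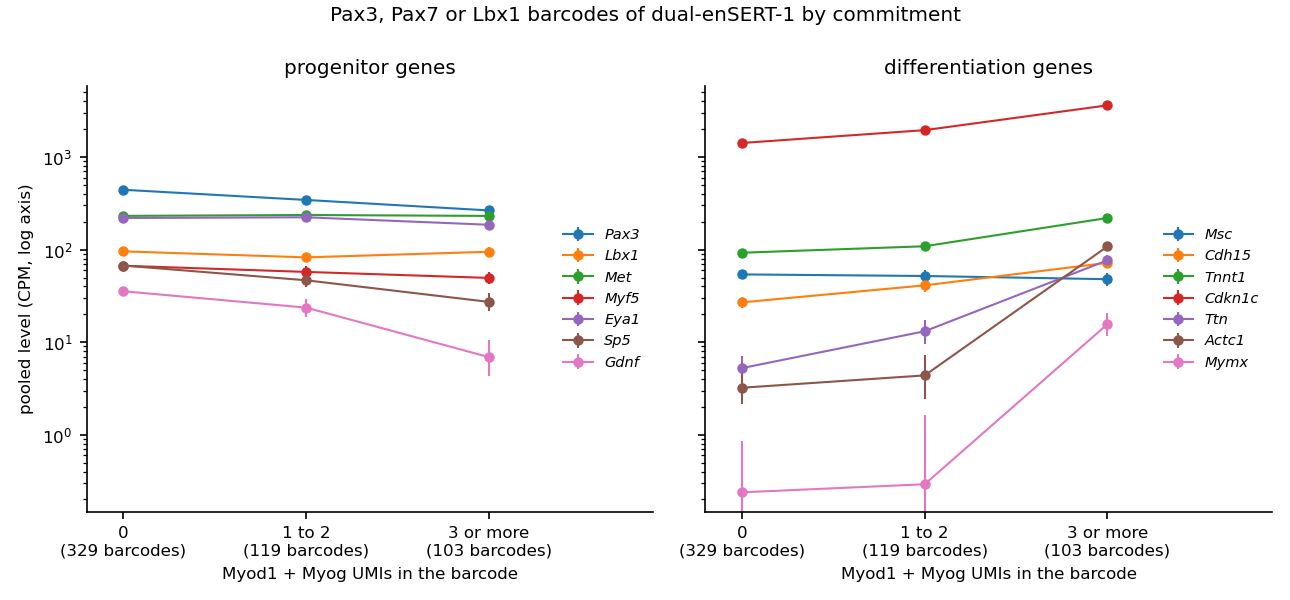
Pooled level in CPM (log axis) of 7 progenitor genes and 7 differentiation genes in Pax-positive barcodes of dual-enSERT-1 with 0, 1 to 2, or 3 or more UMIs of Myod1 and Myog; bars are exact Poisson 95% intervals. Pax3 declines over 444, 344 and 265 CPM while Met stays near 232 CPM, and Cdh15, Cdkn1c, Ttn, Actc1, Tnnt1 and Mymx are highest at the last step.

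Members were also divided by a Myf5 UMI after thinning to 5000 UMIs, into 93 with and 230 without in dual-enSERT-1, against 6 with and 71 without in the dual-enSERT-2 library. Of 6672 genes, Myf5, which made the division, was the 1 called higher (0.015%) and Lsamp, Scube1 and Tbx15 were called lower (0.045%). The 6 dual-enSERT-2 members with Myf5 held 2 Scube1 UMIs and 0 of Lsamp and Tbx15. In dual-enSERT-1, Scube1, a secreted signalling modulator, had 19.8 CPM with Myf5, against 48.9 CPM without, and Tbx15, a T-box gene of limb mesenchyme, had 66.5 CPM, against 136 CPM. Called doublets there were 14 of 93 members with Myf5 (15.1%), against 68 of 230 without (29.6%). With doublets removed, the dual-enSERT-2 log2 ratio of Scube1 was 0.12, which ends its call. In members low in Prrx1 the dual-enSERT-1 log2 ratio of Tbx15 was -0.29, which ends its call too, and with Myf5 detected without thinning the ratios were -0.19 for Scube1 and -0.54 for Tbx15. Lsamp, a cell adhesion gene, had -1.26 in dual-enSERT-1 and between -1.05 and -1.13 under the same 3 settings. Met had 271 CPM with Myf5, against 218 CPM without, and Pax3 had 514 CPM, against 417 CPM, in dual-enSERT-1. Msc, a bHLH repressor that acts with Tcf21 in head muscle, had 79.0 CPM with Myf5, against 45.1 CPM without (log2 ratio 0.80), and was not called. In dual-enSERT-1 alone, 4 genes were called higher (0.0563% of 7106) and 17 lower (0.239%), and in its low-Prrx1 members 6 higher (0.0863% of 6952) and 7 lower (0.101%).

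Last, the progenitors of the libraries were set against each other. Met was at the same level in both, while Myf5, Msc, Tnnt1 and Cdh15 were higher in dual-enSERT-1 progenitors. Of 7209 genes with at least 20 CPM in either library, 218 were called higher in dual-enSERT-1 (3.02%) and 85 lower (1.18%), by a log2 ratio of at least 1 in size. Of 20 migration receptors and adhesion molecules, 15 reached the level and 3 were called higher (Epha4, Cdh4 and Itga4), with a list median of 0.51, beside 0.01 for all genes compared. Of 16 myogenic bHLH and cell-cycle exit genes, 12 reached the level and 4 were called higher (Myf5, Cdkn1c, Cdkn1a and Id1), with a median of 0.41. Larger medians were seen for 11 mesenchyme markers (1.42), 4 hindlimb identity genes (1.36), 7 chondrogenic markers (1.07), 11 IGF genes (0.84) and 16 Notch genes (0.79). The 22 premyogenic regulators had -0.005, the 24 G2/M genes -0.21 and the 9 erythroid markers -6.68. Of 33 structural genes, Tnnt1 and Cdh15 alone reached the level, and both were called higher.

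Met had 232 CPM in dual-enSERT-1, against 232 CPM in the dual-enSERT-2 library, a ratio of 1.0 (exact interval 0.91 to 1.09). Sim2 had 67.4 and 77.3 CPM (0.87, interval 0.74 to 1.03). Eya1, at 220 and 298 CPM (0.74, interval 0.68 to 0.80), was lower in dual-enSERT-1 without reaching the limit, as was Slit2, at 301 and 574 CPM (log2 ratio -0.93).

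Myf5 had 67.0 CPM in dual-enSERT-1 and 23.9 CPM in the dual-enSERT-2 library, which is 2.80-fold (interval 2.16 to 3.70); in members low in Prrx1 it had 82.6 and 30.1 CPM. Msc had 54.0 and 5.69 CPM (9.50-fold, 5.70 to 17.1), and 85.1 and 5.24 CPM in members low in Prrx1. Both were below 0.4 CPM in the mesenchyme of both libraries.

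Tnnt1 had 92.6 and 2.65 CPM, a 34.9-fold ratio (16.9 to 87.1), and 133 and 3.28 CPM in members low in Prrx1. Mesenchyme had 1.78 and 2.28 CPM of it. Mrln, which encodes the muscle micropeptide myoregulin, had 39.0 CPM in dual-enSERT-1, against no UMI in the dual-enSERT-2 library, which is at least 34.3-fold higher when the floor is set at 3 counts over the members. Cdh15 had 26.9 and 4.17 CPM (6.46-fold, 3.54 to 13.1).

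Itm2a, a membrane protein gene of myogenic and chondrogenic cells, had 279 and 12.5 CPM in the progenitors (22.3-fold, 15.8 to 32.4) but 106 and 94.8 CPM in the mesenchyme of the same libraries. Fgf9, an FGF ligand, had 85.8 and 4.93 CPM (17.4-fold, 10.1 to 32.9), with 3.79 and 2.02 CPM in mesenchyme. Itga4, an integrin subunit that binds Vcam1, had 113 and 12.1 CPM (9.30-fold, 6.55 to 13.7). Lama2, a laminin chain of muscle basement membrane, had 149 and 20.5 CPM (7.28-fold, 5.54 to 9.74), with 41.3 and 47.6 CPM in mesenchyme. For Tnnt1, Itm2a, Fgf9 and Lama2 alike, the mesenchyme of the libraries differed less than 2-fold.

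The remaining genes with the largest ratios were Tmtc1, with 48.8 and 1.52 CPM, Kcne1l, a potassium channel subunit gene, with 32.9 and 0.76 CPM, Igfbp3, an IGF-binding protein gene, with 24.4 and 1.14 CPM, and Ptprt, a receptor phosphatase gene, with 23.6 and 1.14 CPM. The dual-enSERT-2 values of these 4 rest on 4, 2, 3 and 3 UMIs. Cdkn1c had 1421 and 322 CPM (4.41-fold, 4.11 to 4.73), and mesenchyme differed in the same direction, with 811 and 374 CPM. Bmpr1b did likewise, with 424 and 159 CPM in progenitors and 124 and 33.6 CPM in mesenchyme.

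The genes lower in dual-enSERT-1 progenitors were led by globins. Hbb-y had 156 and 18594 CPM (log2 ratio -6.89), with 1786 and 12353 CPM in mesenchyme, and Mt1 had 2.50 and 165 CPM. The pooled Hbb-y level of dual-enSERT-2 includes the 2 members with at least 30% globin, while the median member there had 0.250% globin in all. With those members removed the log2 ratio of Hbb-y was -6.34. The erythroid share of the libraries was 1.61% and 25.8%. Its part in these values and in the other differences was not tested. Of 11 mesenchyme markers, 6 were also higher in dual-enSERT-1 members.

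**Figure D5:**
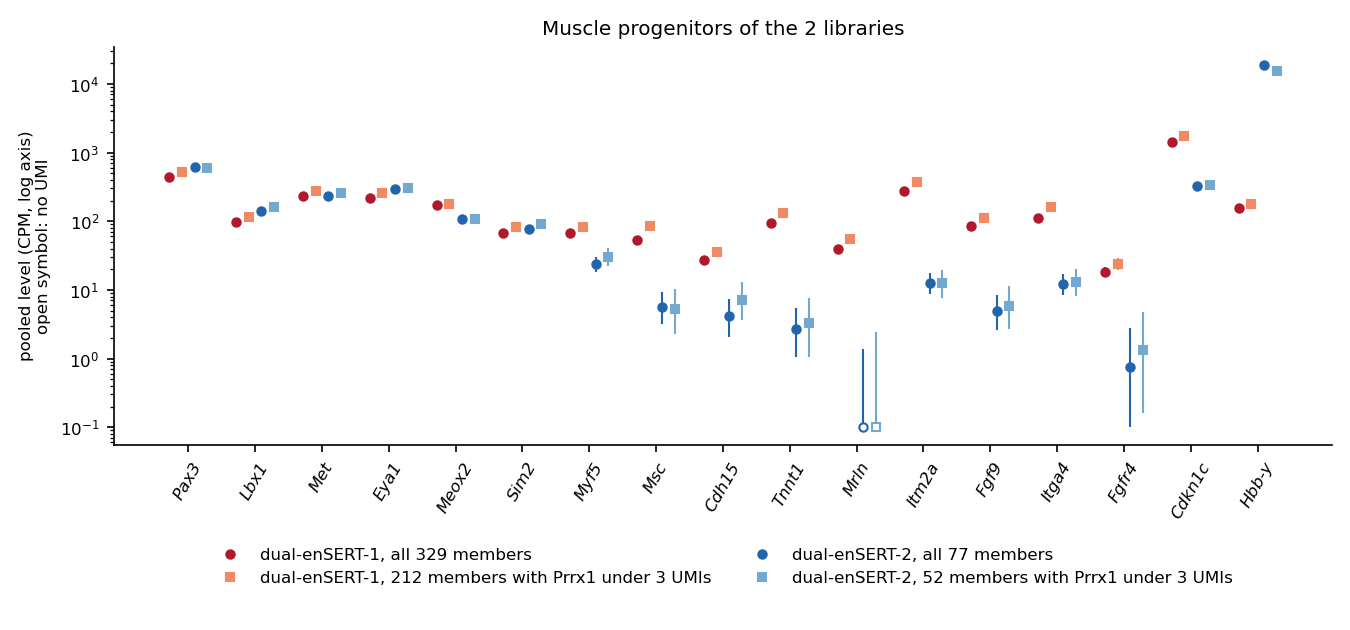
Pooled level in CPM (log axis) of 17 genes in progenitors of dual-enSERT-1 (red, all 329 members; orange, 212 low in Prrx1) and dual-enSERT-2 (dark blue, all 77; light blue, 52 low in Prrx1); bars are exact Poisson 95% intervals and open symbols mean no UMI. The points of Met nearly coincide, Myf5, Msc, Tnnt1 and Itm2a lie higher in dual-enSERT-1, and Hbb-y lies higher in the dual-enSERT-2 library.

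The reporters were low in progenitors. eGFP had 55.0 and 11.8 CPM, against 139 and 20.1 CPM in the other barcodes, and mCherry had 19.3 and 7.96 CPM, against 50.9 and 16.6 CPM. The highest counts in 1 dual-enSERT-1 member were 71 UMIs for eGFP and, taken separately, 65 UMIs for mCherry. Without the highest member for each gene, the levels there were 46.8 and 11.6 CPM. After thinning, eGFP was found in 18.0% of dual-enSERT-1 members, against 18.8% of erythroid and 26.6% of mesenchyme barcodes. In dual-enSERT-2 it was found in 2.60%, against 1.45% and 7.91%. Whether the shares in members are background was not tested. Shh had 0.36 and 0.76 CPM in progenitors, against 6.77 and 5.27 CPM.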

How the data were processed

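Single-cell RNA of mouse hindlimbs was measured in 2 libraries, one per construct. The deposited files hold raw UMI counts per gene and barcode, which the authors made with Cell Ranger, given as 3.1.0 in the submitters' processing notes (with Seurat 4 and build mm39) and as 7.0.1 per the file headers. Total counts were 298653282 UMIs in dual-enSERT-1 and 184301053 UMIs in dual-enSERT-2, and the authors' handling of empty droplets, introns and free RNA is not given in the sources used here. Barcodes under 1000 genes (2593 and 1502) and then over 10% mitochondrial UMIs (125 and 700) were left out. No ambient correction was made. Scrublet (scanpy 1.11.5, expected rate 8%, seed 7) marked doublets, which were kept in all results unless stated.

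UMIs were summed over the barcodes of a cell group and divided by the group's total and scaled to 1000000 (CPM). Levels carry exact Poisson 95% intervals and ratios exact conditional intervals, all for counting error only; a level of 0 allows up to 3 counts. Log2 ratios have 1 CPM added to both levels and understate changes of low genes. Genes were compared at 20 CPM or more and called at a log2 ratio of at least 1 in size. No p-value was computed, since each group has 1 library and the rule uses the measured counts. Named genes are the first 12 per direction by the smaller ratio of the libraries against other barcodes, and the first 8 per direction elsewhere; some genes the rule selects are not reported here. The members, gene lists and comparisons were chosen with earlier results of these data known.

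A planned comparison with committed barcodes in both libraries was made in dual-enSERT-1 alone, and a planned division by Pax7 was not made, with 9 and 0 members holding Pax7 after thinning. Promoter windows came from the GRCm39 genome and GENCODE vM39 canonical starts, and 99 of 99 higher and 121 of 121 lower genes had one. Scripts used scipy 1.17.1 for intervals, pandas 2.3.3, numpy 2.4.6 and matplotlib 3.10.9 under Python 3.11.15 and were tested on simulated data. Alternatives were the level minimum, pseudocount, gene, mitochondrial and Pax thresholds, doublet removal, equal weight per cell, thinning, mesenchyme as comparison and, chosen after seeing the data, members low in Prrx1, removal of barcodes with at least 30% globin and the Myf5 division in dual-enSERT-1 alone.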

Additional observations from a re-analysis of the deposited data

Results flagged for a closer look

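Itm2a, Lama2 and Col2a1 were among the genes whose log2 ratios had opposite signs in the libraries when progenitors were set against other barcodes. Others were Ets1, with -0.76 in dual-enSERT-1, against 1.99 in the dual-enSERT-2 library, and Cgnl1, with -0.69, against 2.62. The difference between the libraries was not tested. Itm2a had 1.34 in dual-enSERT-1, against -2.29 in the dual-enSERT-2 library. Lama2 had 1.75 in dual-enSERT-1, against -0.67 in the dual-enSERT-2 library. Col2a1, the cartilage collagen gene, had -0.97 in dual-enSERT-1, against 0.66 in the dual-enSERT-2 library, with 45.7 and 21.2 CPM in progenitors and 91.7 and 12.4 CPM in mesenchyme.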

How the results depend on the processing

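Each group is 1 library, so spread between replicates is unknown, and no replicate can be left out. No paired analysis was possible because each construct has 1 library and no result comes from a test. Counts of called genes depended on the level minimum by construction, since it sets how many genes are compared: with no minimum, 228 genes were called higher and 495 lower against other barcodes, 379 and 479 against committed barcodes, and 1037 and 485 in dual-enSERT-1 over dual-enSERT-2; at 50 CPM the counts were 53 and 73, 22 and 84, and 103 and 39. With committed barcodes taken at 1 UMI of Myod1 or Myog beside the Pax genes, 10 genes were called higher and 38 lower; the cause was not tested. The rule on barcodes thinned to 5000 UMIs left 209 and 45 members, as it must with fewer UMIs, and members low in Prrx1 numbered 212 in dual-enSERT-1. The Myf5 division called 2 genes higher in members low in Prrx1, and Scube1 had a log2 ratio of 0.12 with doublets removed; the cause was not tested. With barcodes of at least 30% globin removed, the log2 ratios against other barcodes in dual-enSERT-2 were 0.86 for Hbb-bh1, 0.64 for Car2, 0.87 for Hba-x, 0.86 for Hbb-y, 0.84 for Hba-a1, 1.16 for Mt1 and 0.33 for Hba-a2, the opposite sign. With Prrx1 mesenchyme as the comparison they were 0.46 for Hbb-bh1, 0.52 for Car2, 0.53 for Hba-x, 0.59 for Hbb-y, 0.67 for Hba-a1, 0.79 for Mt1 and 0.38 for Hba-a2. The first setting leaves barcodes of at least 30% globin out by construction. The mesenchyme group has no globin limit: 161 of its 3729 dual-enSERT-2 barcodes exceeded 1% globin, the highest at 64.4%. Of the log2 ratios of named genes under the settings listed at the outset, 389 moved little, 96 moved more and 7 changed sign; under those chosen after seeing the data, 87 moved little, 25 moved more and 8 changed sign.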
